A study of Mus musculus with 2 samples.

Results

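The metallothionein genes Mt1, Mt2, Mt3 and Mt4 lie side by side on mouse chromosome 8, and their RNA was compared between 2 pools of cells from the embryonic neural tube region. Members were chosen by position, as every row of the authors' deposited table whose locus overlapped the stretch of mm9 chromosome 8 that holds the 4 genes; the loci found run from 96661104 to 96704227. These were 5 of 55418 transcripts, at 4 of 24214 loci. The cluster was picked after differences in this same comparison were known, so the fold changes, statistics and calls of its members are a description here and not a test. The first pool held GFP-positive cells, labelled as non-neural ectoderm, and the second held RFP-positive cells, labelled as the neural tube cells that remained. Both came from embryos of an mTmG by Grhl3-cre cross on a C57BL/6 background at embryonic day 9.5, with 21 to 25 somites. All cells of such embryos carry a red membrane reporter, and Cre made from Grhl3 switches it to green, so the green pool is defined by where Grhl3 was or had been active and not by position in the embryo. RNA from 25 embryos was pooled and 1 library was made per pool, so no value has a replicate and every statistic compares 2 libraries.

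The table names its conditions only q1 and q2, and neither name matches the labels of a pool. Fold changes are those of q2 over q1, and which of these is the GFP-positive pool is not stated, so no value is given a direction between the pools. The columns of abundance in each condition were matched to no pool and were not used, so the level of each gene in each pool is not given. The table carries transcript IDs without gene names. The members were named from their order along the chromosome and from their size. The spans of the Mt4, Mt3 and Mt2 loci were 1828, 1542 and 950 bases, equal to those of the RefSeq genes on GRCm38.p6. The Mt1 locus spanned 1239 bases, equal to the RefSeq span counted from the start used in the promoter table, and the whole RefSeq gene, with a predicted longer transcript, spanned 1445 bases. Successive starts were 15403, 20011 and 6471 bases apart, the same on both builds. Markers of the labelled cell types were not checked; matching by span and spacing was applied to the cluster and its flanks alone.

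Metallothioneins are small cytoplasmic proteins whose many cysteines bind zinc and copper and also detoxify cadmium. Mt1 and Mt2 are made in most tissues and are switched on by zinc, other metals, glucocorticoids and oxidative stress, with the zinc-sensing transcription factor MTF-1 binding metal response elements in their promoters. Mt3 is known mainly from the brain, where it was described as a growth inhibitory factor for neurons, and Mt4 from stratified squamous epithelium. In the mouse embryo, Mt1 and Mt2 are known for high expression in the visceral endoderm and the liver.

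The sequences before the RefSeq starts of Mt1 and Mt2, the genes with called transcripts, are shown with that of Mt3, the tested gene without a call. Each runs over 250 bases on the forward strand of GRCm38.p6, from RefSeq, and ends at the base before the start. Capitals mark matches on either strand to the core of the metal response element, searched as TGCACNC and TGCGCNC, where N is any base. The windows are chr8:94178839-94179088 for Mt1, chr8:94172368-94172617 for Mt2 and chr8:94152357-94152606 for Mt3.
Mt1: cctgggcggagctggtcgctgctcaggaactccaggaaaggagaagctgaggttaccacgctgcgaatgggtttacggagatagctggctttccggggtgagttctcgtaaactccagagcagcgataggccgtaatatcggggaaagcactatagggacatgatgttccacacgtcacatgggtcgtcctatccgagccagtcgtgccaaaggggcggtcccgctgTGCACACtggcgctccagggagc
Mt2: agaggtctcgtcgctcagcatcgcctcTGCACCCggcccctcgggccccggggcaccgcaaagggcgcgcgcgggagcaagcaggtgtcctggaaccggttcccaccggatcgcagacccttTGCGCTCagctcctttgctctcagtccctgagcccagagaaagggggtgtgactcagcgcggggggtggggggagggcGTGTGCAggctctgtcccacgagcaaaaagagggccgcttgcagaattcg
Mt3: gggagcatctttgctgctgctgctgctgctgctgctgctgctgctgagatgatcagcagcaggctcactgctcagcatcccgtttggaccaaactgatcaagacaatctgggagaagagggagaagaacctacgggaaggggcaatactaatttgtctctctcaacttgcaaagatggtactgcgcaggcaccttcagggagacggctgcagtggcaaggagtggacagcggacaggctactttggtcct

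The Mt2 window held 3 matches, 2 on the gene's strand and 1 on the opposite strand, and no matches overlapped. The Mt1 window held 1 match, 23 to 17 bases before the RefSeq start used here. Where transcription of Mt1 began in these cells was not examined. The Mt3 window held 0 matches, and that of Mt4 held 1, on the opposite strand. Among 32817 windows of the same length before RefSeq starts, 21.4% held at least 1 match, 5.18% at least 2 and 1.26% at least 3. A single match in such a window, as at Mt1 and Mt4, was therefore common, and 3 matches, as at Mt2, were not. These counts depend on the RefSeq start used, and bases after it were not searched. The GENCODE M21 annotation starts Mt2 at 94172664, past the end of its window at 94172617, so that start would give Mt2 another window. It starts Mt1 at 94179082, just inside the window that ends at 94179088. With bases after the start unsearched, the 1 match at Mt1 is not a count for its whole promoter. A match gives letters and not a bound site, and the absence of one in this window says nothing of elements elsewhere. The windows of Mt2 and Mt1 were also richer in CpG, the dinucleotide subject to methylation, with 21 and 17 against 5 in each of Mt3 and Mt4 and a median of 6 over all windows. Of all windows, 83.7% had fewer CpG than that of Mt2 and 76.5% fewer than that of Mt1, so such counts were not rare. Methylation was not tested. The GC content was 67.6% for Mt2, 58.8% for Mt1, 54.8% for Mt3 and 60.4% for Mt4, with a median of 52.4% over all windows.

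**Figure D1:**
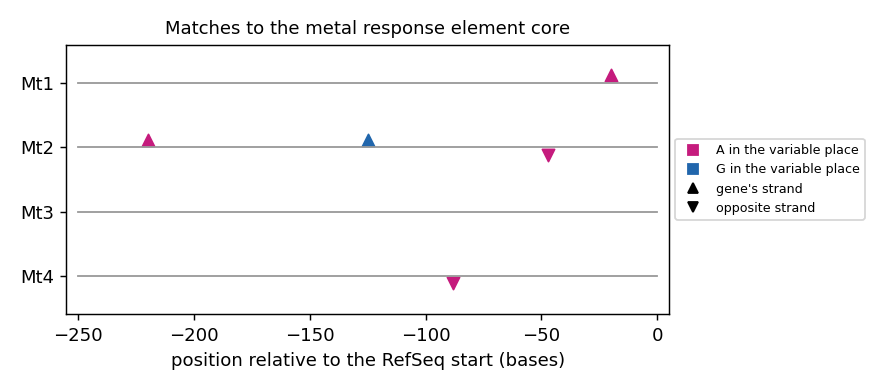
Positions of matches to the metal response element core in the 250 bases before the RefSeq start of each gene, in bases on the horizontal axis, with 1 line per gene. Upward triangles are on the gene's strand and downward ones on the opposite strand. Colour tells TGCACNC from TGCGCNC, and the variable place in the key is the A or G that differs between them, not N. Mt2 has 3 matches, Mt1 and Mt4 have 1 each and Mt3 has 0.

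Mt2 and Mt1 differed between the conditions with the same sign and by similar folds. In the authors' deposited table, 2 of the 4 tested metallothionein transcripts were called different, both positive, while 0.803% of all 29405 tested transcripts were called and 0.69% were called positive. The contrast is the one in which the genes were noticed, so nothing is read from that count. The Mt2 transcript uc009mvv.1, the sole transcript of its locus at 96696518 to 96697467 of mm9, had a log2 fold change of 2.94 in the authors' deposited table. Its error, taken as the size of the fold change over the size of the authors' test statistic, was 0.43. This is 7.65-fold higher in q2 than in q1, with an interval of 4.27 to 13.7 at the 95% level, and its q-value in the authors' deposited table was 5.15e-09.

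Mt1, the other widely expressed and metal-inducible member, was listed as 2 transcripts at 1 locus, from 96702989 to 96704227. The authors' deposited table listed uc009mvw.2 at a log2 fold change of 2.55, called at a q-value of 7.59e-07, and the error was 0.42. This is 5.86-fold higher in q2 than in q1, with an interval of 3.29 to 10.4. The second transcript, uc009mvx.2, had a log2 fold change of 2.93 in the authors' deposited table, but its error was 3.06 and it was not called. Its estimate is so wide, from 0.119-fold to 487-fold, that it shows neither a difference nor the lack of one. Both transcripts share the locus, and how the authors' software divided reads between them was not examined.

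The fold changes of Mt2 and Mt1 could not be told apart. Mt2 uc009mvv.1 exceeded Mt1 uc009mvw.2 by 0.39 log2 units, with a combined error of 0.60 and an interval of -0.80 to 1.57. That interval covers equal change as well as a more than 2-fold larger change of Mt2. In bulk RNA, more cells that express a gene and more of its RNA per cell cannot be told apart, and this holds for each fold change given here.

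Mt3, the member known from the brain, was tested with a wider error and not called. Its transcript uc009mvu.2, at 96676507 to 96678048, was listed at 0.22 on the log2 scale in the authors' deposited table and was not called; the error was 0.94. The interval of the fold ran from 0.323 to 4.21, so a difference of 3-fold in either direction was within that interval. The estimate for Mt3 was below that of Mt2 uc009mvv.1 by more than the errors of both, since Mt2 exceeded it by 2.71 log2 units with an interval of 0.68 to 4.75. Mt1 uc009mvw.2 exceeded Mt3 by 2.33 log2 units, with an interval of 0.30 to 4.36. These intervals treat the estimates as independent and rest on genes that were picked with their fold changes known.

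Mt4, the member known from stratified epithelium, was left untested by the authors. Its transcript uc009mvt.1, at 96661104 to 96662931, was listed at a log2 fold change of 0 in the authors' deposited table. Of the 25431 transcripts left untested, 15280, or 60.1%, were listed in this way, so the 0 is not a measured equality. Nothing can be said of Mt4 in either pool from the columns used.

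**Figure D2:**
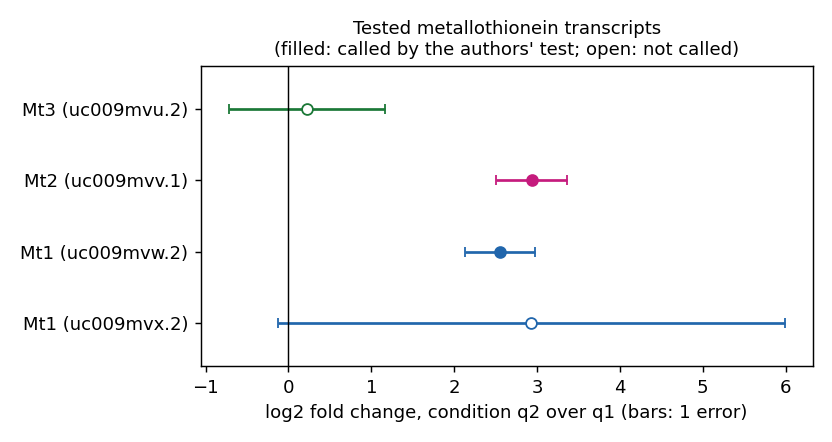
Log2 fold change of condition q2 over q1 for the 4 tested metallothionein transcripts, with bars of 1 error on each side; filled points were called by the authors' test and open points were not. Mt2 at 2.94 and the first Mt1 transcript at 2.55 have short bars and lie away from 0, Mt3 at 0.22 spans 0, and the second Mt1 transcript at 2.93 has an error of 3.06.

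Few transcripts paired a log2 fold change at least as high as that of the called Mt1 transcript with an error no larger. The cluster was picked with the differences of its members known, so the ranks and counts below describe where they lie and test nothing. Of 28140 tested transcripts with a finite fold change, 617 had a log2 fold change at least that of Mt1 uc009mvw.2, and 140 of these, or 22.7%, were called. Only 32 of the 28140, that transcript among them, had a log2 fold change at least as high and also an error no larger. Negative changes of that size were not counted, and no such count was made for Mt2. By the size of the test statistic, Mt2 uc009mvv.1 ranked 46 and Mt1 uc009mvw.2 ranked 71, while Mt3 uc009mvu.2 ranked 13600. The errors of Mt2 and Mt1 were smaller than most, with 17.8% and 17.2% of tested transcripts below them, whereas 51.9% lay below the error of Mt3. Within the 201 finite positive calls, the fold changes of Mt2 and Mt1 ranked 93 and 140, so neither lay at the top of the called range.

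**Figure D3:**
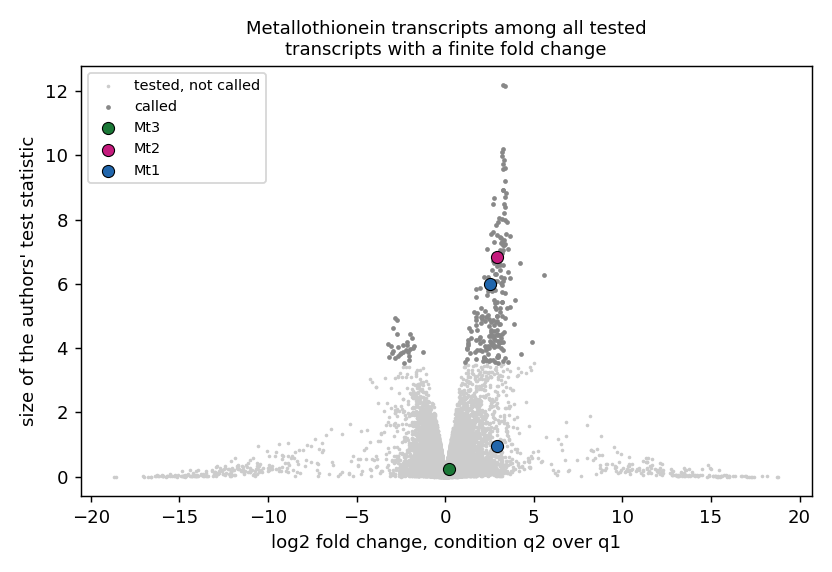
Size of the authors' test statistic, with no unit, against the log2 fold change of condition q2 over q1 for the 28140 tested transcripts with a finite fold change, grey where not called and darker grey where called. Coloured points are metallothionein transcripts; Mt2 and the called Mt1 transcript lie at statistics of 6.84 and 6.01, Mt3 and the second Mt1 transcript at 0.24 and 0.96.

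Loci beside the cluster were read for comparison. Among loci that reach into the 250 kb to either side of the cluster, 13 flanking transcripts at 7 loci were tested and 0 were called. With 0.803% of all tested transcripts called, a count of 0 among 13 says nothing particular about the flanks. They had log2 fold changes between -0.85 and 1.35 and a median of 0.02. The locus whose span equals that of Nudt21, a factor of messenger RNA 3′ end processing, had a log2 fold change of 0.09 (error 0.44). Errors of the flanking transcripts ran from 0.30 to 54.9. The transcript at -0.85 had the error of 54.9 and the one at 1.35 had an error of 2.79, so the ends of that range carry almost no information. The other flanking loci are not named. Inside the cluster, the end of the Mt3 locus lay 18469 bases before the start of Mt2, and the end of Mt2 lay 5521 bases before the start of Mt1.

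**Figure D4:**
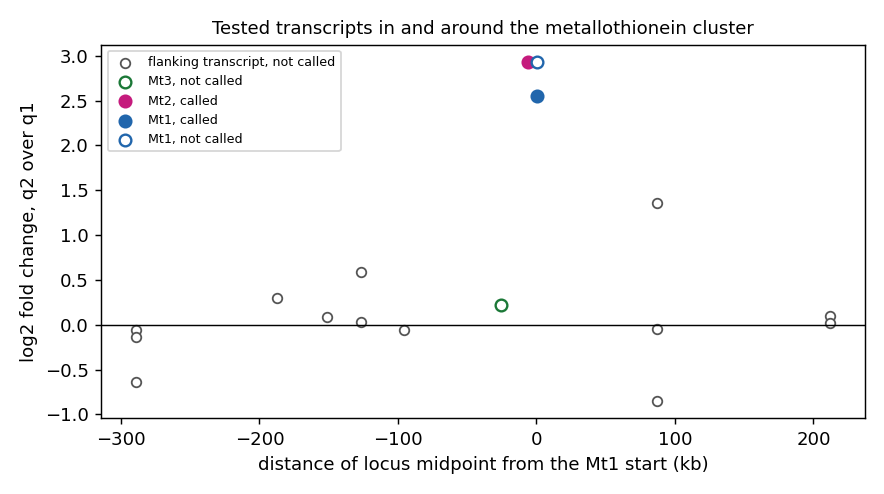
Log2 fold change of condition q2 over q1 against the distance of each locus midpoint from the Mt1 start, in kb, for tested transcripts of the cluster and of loci that reach into the 250 kb to either side of it; filled points were called and open points were not. The called Mt2 and Mt1 transcripts, at 2.94 and 2.55, sit next to each other above the 13 flanking transcripts, whose highest value, 1.35, has an error of 2.79, and the uncalled second Mt1 transcript, at 2.93, sits beside them.

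The cluster's genes are related in sequence, so the possibility that reads of one were counted for another was examined in GENCODE M21 transcripts. The longest identical stretch between transcripts of Mt1 and Mt2 was 20 bases, that between Mt1 and Mt3 27 bases and that between Mt2 and Mt3 20 bases. No stretch of 36 bases of Mt1, Mt3 or Mt4 occurred in a transcript of another gene, on either strand. For Mt2, 310 of 568 such stretches, or 54.6%, also lay in Gm45774, an antisense gene on the opposite strand that overlaps it. The sources used here do not say whether reads were counted by strand, so reads from the shared stretches could belong to either gene if strand was not used, while the remaining stretches of Mt2 occurred in no other gene. The part of Gm45774 in the value of Mt2 was not tested. Read length is not given in the sources used here, and 36 bases was an assumed length. Only exact matches to annotated transcripts were searched. Reads placed with mismatches, or in unannotated parts of the genome, were not examined, so counting of reads for the wrong gene is not excluded.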

How the data were processed

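RNA of 2 sorted cell pools was sequenced, with 1 library per pool. The submitters' processing notes name mm9 as the build and list Cuffdiff, Cufflinks 2.0.2 and TopHat 1.3.2; of the annotation and the settings, the sources used here say nothing. The authors deposited 1 table with a log2 fold change, a test statistic (a score), a p-value and a q-value per transcript. The 2 columns of abundance carry names that match no pool and were not used, so depth is unknown and no floor is given. The rule for the cluster asked for these columns; its members were found from the locus column alone. Locus starts were raised by 1 because spans matched RefSeq only when counted from 0.

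Members and lists were chosen with earlier results of these data known. A call is a transcript marked significant by the authors. No test was computed, since each pool has 1 library. The error is the fold change over the statistic, and intervals are 1.96 errors wide on each side. All rows of the cluster are named. The planned lists of metal-handling genes and cell type markers were not run. The table carries no gene names, and matching by span was tried for this region alone. Whether the listed genes could be named in that way was not examined. Flanking loci were named only where a RefSeq gene had the same span and spacing. Adjustment of p-values and motif search were tested on simulated data. Python 3.11.15, numpy 2.4.6, pandas 2.3.3 and matplotlib 3.10.9 were used.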

Additional observations from a re-analysis of the deposited data

How the results depend on the processing

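The 2 calls, of Mt2 uc009mvv.1 and Mt1 uc009mvw.2, numbered 2 at a q-value of at most 0.01, at one of at most 0.1 and with the deposited p-values adjusted by the Benjamini-Hochberg method over all rows. Their q-values, 5.15e-09 and 7.59e-07, lay far below both limits and those of the uncalled members lay above them. Neither limit could therefore have changed the count. The median log2 fold change of the 4 tested members was 2.74, and 2.74 after centring on the median of all tested transcripts. It was 2.55 with the untested Mt4 included and 2.55 with 1 tested transcript per locus, a setting chosen after seeing the data. Centring moved each of the 4 fold changes by less than its error, and could hardly do otherwise, since the median removed was 0.0046. Pseudocounts and a filter on low abundance were not run, because the abundance columns were left unused. Neither step needs to know which pool is q1, so this was a choice. How near the members lie to the floor was not examined. No paired analysis was possible because each pool gave 1 library, and for the same reason none was left out. Without replicates, the errors cover the authors' model of 2 libraries and not variation between embryos.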
